A study of Triticum aestivum with 24 samples.

Results

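Transcripts of the photosynthesis genes rbcl, PRK and PsbP were measured in bread wheat flag leaves with 4 of the 61290 probe sets on an Affymetrix wheat array. They were TaAffx.128414.72.S1_at and TaAffx.128414.181.S1_at, 2 of the probe sets annotated to rbcl (LOC100049018) and here called A and B, Ta.23158.1.S1_at for PRK (LOC543283) and TaAffx.120874.1.S1_x_at for PsbP (LOC543290). All 4 passed the filter on dim probe sets. They were picked by their IDs with drought responses of these same data already known, so their drought values are given as a description, without a test. No sequence of these probe sets is shown, and their genome positions were not used here.

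The 8 groups, each with 3 arrays, came from 4 plant materials, each grown under drought and under irrigation. The materials were C306, a drought-tolerant cultivar used as a parent; WL711, the drought-susceptible parent; a tolerant bulk; and a susceptible bulk. Each bulk was a pool of 10 recombinant inbred lines (RILs), so a bulk value is that of a mixture and not of 1 line. The leaves were taken at the reproductive stage. The sources used here do not give the length or severity of the drought. The replicates are called biological in the series text, but whether each is a different plant or plot is not said. The p-values therefore reflect array-to-array spread, some of which may be technical.

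The flag leaf is the last leaf a wheat shoot forms and a main source of sugar for the filling grain. In its chloroplasts, photosystem II splits water, and the electrons it frees supply the energy used by the Calvin cycle to fix carbon dioxide. PsbP is a nuclear-encoded protein of the oxygen-evolving complex, which holds the water-splitting site of photosystem II in working order. PRK, phosphoribulokinase, makes ribulose bisphosphate, the sugar phosphate to which carbon dioxide is added. Rubisco adds it, and rbcl stands for the large subunit of Rubisco, which in plants is encoded in the chloroplast genome. Reduced supply of carbon dioxide through closing stomata and lower levels of photosynthesis transcripts are both well known in droughted leaves.

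Values are the authors' deposited intensities ("signal"), which have no unit of their own. Differences were computed on log2(signal + 16) after each array was centred on its median, and the added 16 makes them understate the change of dim probe sets. Wheat is hexaploid, and a probe set may detect copies from all 3 subgenomes. The _x_at ending of the PsbP probe set marks probes shared with other sequences, so its signal may mix transcripts. In a whole leaf, fewer cells of a type and less RNA per cell cannot be told apart.

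A few arrays stood apart and touch the values below. The array labelled WL711 drought replicate 1 went against its label: a score over 837 probe sets that were higher and 478 that were lower under drought in the 3 other materials, without the 4 described here, was -1.40 on it (log2), against 0.76 and 0.82 on the other WL711 drought arrays and -1.88 to -1.76 on the WL711 irrigated arrays. C306 drought arrays 1 and 3 had a hybridisation spike-in signal of log2 14.12 and 13.63, while it lay between 11.63 and 12.72 on the remaining arrays. On tolerant bulk drought array 3 the highest signal was 47272, against 110365 and 107679 on the other 2 arrays of its group. For results that rest on these arrays, the value without them or the signal of each array is given. The leaf genes PsbO, petC, PsbP and rbcl had probe sets among the bright ones, whereas the 2 grain storage protein genes that were tested, abu-7 and gli-2, had a mean signal of at most 119.

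The 2 rbcl probe sets differed between droughted and irrigated leaves in opposite directions in tolerant and susceptible materials. Under drought both were lower in C306 and in the tolerant bulk, and both were higher in WL711 and in the susceptible bulk. The spread between arrays of one group was wide, above all for rbcl probe set A in the parents.

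In C306, rbcl probe set A had signals of 300, 4144 and 333 under drought, against 1951, 9821 and 7253 under irrigation. Drought arrays 1 and 3 lay below every irrigated array, whereas array 2 lay within their range. The difference was -2.77 ± 0.95 on the log2 scale (standard error, n = 3 arrays in each group, as for all differences below). It was -0.24 without drought arrays 1 and 3, that is, with array 2 as the only drought array.

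In WL711, rbcl probe set A had signals of 298, 6508 and 10889 under drought, against 1078, 1357 and 374 under irrigation. Drought arrays 2 and 3 were far above every irrigated array, and array 1, whose drought score was near that of irrigated leaves, was below them. The difference was 1.81 ± 0.95, and 3.35 without array 1.

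In the tolerant bulk, the signals of A were 466, 282 and 340 under drought, against 2435, 1023 and 1203 under irrigation, a difference of -1.97 ± 0.95. The ranges, compared after centring as throughout, were separate, as they were for 32.1% of all 36707 tested probe sets in that material. In the susceptible bulk, they were 958, 3328 and 2294 under drought, against 143, 196 and 294 under irrigation, a difference of 3.26 ± 0.95. These ranges were also separate, as were those of 49.4% of all tested probe sets there, and every drought array was higher.

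**Figure D1:**
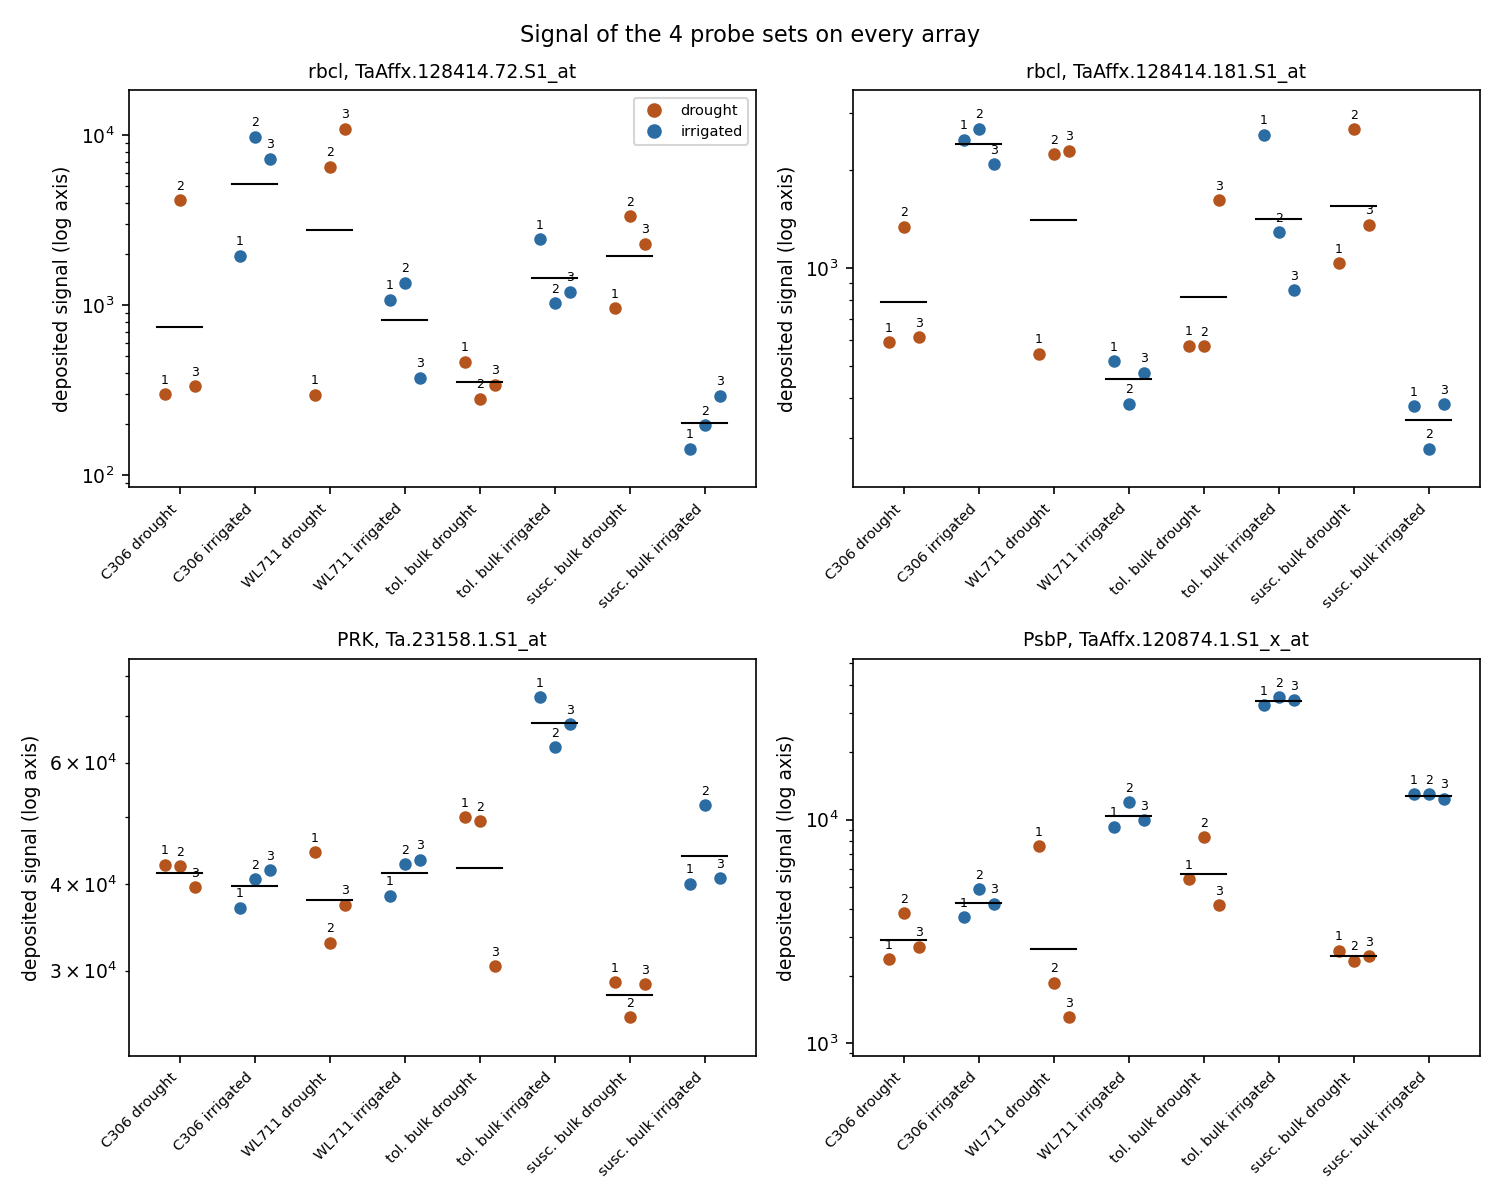
Deposited signal (log axis) of the 4 probe sets on each of the 24 arrays; points are arrays and bars are geometric group means, with drought left of irrigation in each material; rbcl probe set A is at the upper left and B at the upper right. The rbcl probe sets run in opposite directions in tolerant and susceptible materials, PRK stays between 25696 and 74522, and PsbP is lower on all drought arrays of the tolerant and susceptible bulks.

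The second rbcl probe set, B, showed the same opposition with less spread. In C306 its signals were 593, 1339 and 614 under drought, against 2480, 2676 and 2083 under irrigation, a difference of -1.60 ± 0.44. The ranges were separate, which held for 37.8% of all tested probe sets in C306, and the difference was -0.75 without drought arrays 1 and 3. In WL711 the signals were 546, 2240 and 2293 under drought, against 518, 384 and 478 under irrigation, a difference of 1.65 ± 0.44. These ranges were separate as well, as for 32.8% of all tested probe sets in WL711, although drought array 1 lay only just above the irrigated arrays, and the difference was 2.28 without it.

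In the tolerant bulk, rbcl probe set B had signals of 578, 577 and 1616 under drought, against 2570, 1287 and 854 under irrigation. These ranges overlapped, and the difference of -0.78 ± 0.44 was under 2 standard errors. It was -1.16 without drought array 3, which held the 1616. In the susceptible bulk the signals were 1037, 2675 and 1360 under drought, against 377, 279 and 383 under irrigation, a difference of 2.23 ± 0.44. The ranges there were separate, as for 49.4% of all tested probe sets in that bulk.

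Because the 4 materials opposed each other, the drought difference averaged over them was near 0 for the first probe set, 0.08 ± 0.48, and 0.37 ± 0.22 for the second. The difference between the drought responses, tolerant minus susceptible, was -4.58 ± 1.35 in the parents and -5.23 ± 1.35 in the bulks for rbcl probe set A. For rbcl probe set B it was -3.26 ± 0.63 in the parents and -3.01 ± 0.63 in the bulks. These values hold the pattern for which the 2 probe sets stand out, and they were not tested. Without C306 drought arrays 1 and 3 those in the parents were -2.05 and -2.41.

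**Figure D2:**
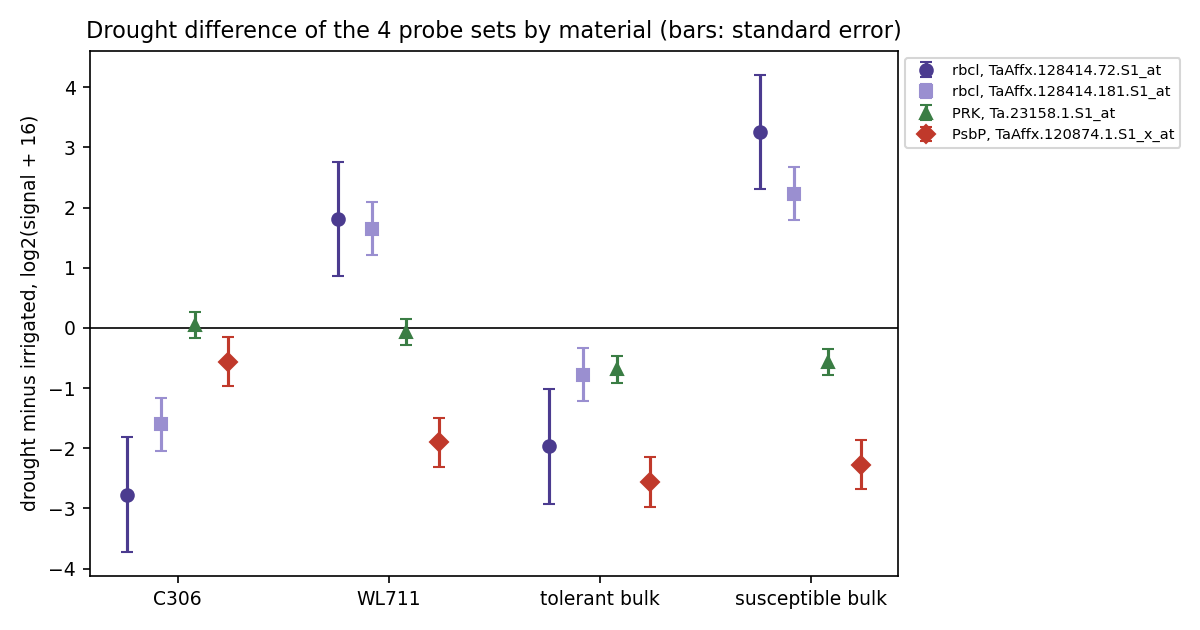
Drought minus irrigated difference on log2(signal + 16) for the 4 probe sets in each material; points are fitted differences and bars their standard errors, from 3 arrays in each group. Both rbcl probe sets are below 0 in C306 and the tolerant bulk and above 0 in WL711 and the susceptible bulk, PsbP is below 0 in all 4 materials, and PRK is near 0 in the parents.

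Seen by water regime, the same values separated the materials. Under irrigation, rbcl probe set B had signals of 2083 to 2676 in C306, against 384 to 518 in WL711, a difference of 2.37 ± 0.44. The tolerant bulk had 854 to 2570, against 279 to 383 in the susceptible bulk, a difference of 2.09 ± 0.44. The corresponding differences of rbcl probe set A under irrigation were 2.65 ± 0.95 in the parents and 2.84 ± 0.95 in the bulks. Both probe sets had separate ranges in both pairs, as did 44.2% of all tested probe sets between the parents and 39.5% between the bulks. Under drought the order turned: the differences were -1.93 ± 0.95 and -0.89 ± 0.44 between C306 and WL711, and -2.39 ± 0.95 and -0.91 ± 0.44 between the bulks. Of these 4 pairs of ranges, 1 was separate, that of rbcl probe set A between the bulks. Ranges were separate for 23.4% of all tested probe sets between the droughted parents and for 25.4% between the droughted bulks. Without C306 drought arrays 1 and 3 the drought difference between the parents was 0.60 for rbcl probe set A and -0.04 for rbcl probe set B, and without WL711 drought array 1 it was -3.47 for A. These comparisons use the same arrays as the drought differences and carry no test for rbcl probe sets A and B.

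Ordered by level, irrigated C306 stood highest on both rbcl probe sets and the irrigated susceptible bulk lowest. On rbcl probe set A the centred log2 levels ran from 12.38 ± 1.29 (SD, n = 3) in irrigated C306 to 7.66 ± 0.50 in the irrigated susceptible bulk. Each neighbouring pair of groups in that order overlapped except the last, the tolerant bulk under drought (8.52 ± 0.42) above the irrigated susceptible bulk. On rbcl probe set B they ran from 11.28 ± 0.22 to 8.37 ± 0.24. There the first 6 groups in the order overlapped pair by pair, while irrigated WL711, at 8.91 ± 0.21, lay below C306 under drought and above the irrigated susceptible bulk, with no overlap on either side.

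Some control signals also differed between the regimes. Of those given here, only 18S ribosomal RNA did so in both bulks, in the direction of rbcl. The control probe set for 18S ribosomal RNA had signals of 14 to 85 in the tolerant bulk under drought, against 93 to 102 under irrigation, and of 68 to 137 in the susceptible bulk under drought, against 7 to 39 under irrigation. In the parents it overlapped, at 20 to 271 in droughted C306, against 63 to 130 in irrigated C306, and at 97 to 698 in droughted WL711, against 62 to 863 in irrigated WL711. Of the 3' minus 5' differences of control transcripts (log2), a measure of RNA quality, that of ef1a was -1.36 to 0.89 in the tolerant bulk under drought, against 1.42 to 2.80 under irrigation, with separate ranges, and overlapped in the susceptible bulk. The irrigated tolerant bulk was also separate in it from the irrigated susceptible bulk, at -0.22 to 0.42, the comparison in which PRK and PsbP were called below. In the susceptible bulk, GAPDH was at -0.53 to 0.03 under drought, against -1.71 to -0.63 under irrigation. Actin there was at -0.19 to 0.39 in droughted leaves, against -1.27 to -0.26 in irrigated ones. Both had separate ranges in that bulk and overlapped in the tolerant bulk. In the parents these differences overlapped between the regimes except for ef1a in C306, at 0.42 to 1.47 under drought, against -1.19 to 0.19 under irrigation. The spike-in signal was log2 12.67 to 14.12 in droughted C306, against 11.99 to 12.26 in irrigated C306. In WL711 it was 11.83 to 12.72 under drought, against 11.63 to 11.73 under irrigation. It overlapped between the regimes in both bulks. Under irrigation it was higher in C306 than in WL711, with separate ranges. The irrigated tolerant bulk, at 12.16 to 12.25, also lay above the irrigated susceptible bulk, at 11.64 to 11.99. The part of these controls in the rbcl, PRK and PsbP values was not tested.

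The platform annotation gave rbcl 28 probe sets, of which 19 passed the filter on dim probe sets: the 2 described above and 17 others. The 9 that did not pass had mean signals of at most 37.1. Which of these probe sets detect the chloroplast gene, nuclear copies of it or other transcripts is not given in the sources used here, so values of near-identical sequences are uncertain here. The 17 others entered by their annotation and not by their own values, and they were tested. Their gene was picked with drought responses of these data known, and they may detect the same transcripts as A and B. Their calls and p-values are therefore not independent evidence.

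In the irrigated bulks, 7 of the 17 were higher in tolerant leaves than in susceptible ones and 0 were lower, by limma with Benjamini-Hochberg adjustment over all tested probe sets. Of all tested probe sets, 6.49% were called higher in that comparison. The median difference of the 17 was 1.39, against 0.05 over all tested probe sets. The count was 6 under quantile normalization, where the median was 0.56. Between C306 and WL711 under irrigation 2 of the 17 were called higher and 0 lower, with 8.31% of all tested probe sets called higher. The count was 4 without WL711 drought array 1, and the share over all tested probe sets at that setting is not given here. Over all tested probe sets, calls in either direction numbered 5941 with all arrays and up to 7577 when a single array was left out.

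The drought responses of the 17 were mixed. In WL711, 2 were called higher and 0 lower, where 10.4% of all tested probe sets were called higher. That count was 5 without drought array 1, and 0 with no filter on dim probe sets or with arrays centred over all or over the brightest probe sets. Calls over all tested probe sets in WL711, in either direction, numbered 7140 with all arrays and up to 11436 when a single array was left out. In the susceptible bulk 1 was called higher and 0 lower, with 12.8% of all tested probe sets called higher. In C306 1 was called higher and 0 lower, with 9.23% called higher, and the count was 0 without C306 drought arrays 1 and 3. In the tolerant bulk 1 was called higher and 2 lower, where 11.2% of all tested probe sets were called higher and 7.63% lower. Without drought array 3 of that bulk both counts were 0. The counts among the 17 were close to what the shares over all tested probe sets give. The median difference was 0.61 in WL711 and 0.52 in the susceptible bulk, against 0.21 in C306 and -0.68 in the tolerant bulk.

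For the difference between the drought responses of the bulks, tolerant minus susceptible, 13 of the 17 were negative with a median of -0.88, and 2 were called lower, with 1.85% of all tested probe sets called lower. The 2, singled out here after their values were seen, had mean signals of 302 and 51.3. The brighter of them had signals of 364, 114 and 182 in the tolerant bulk under drought, against 386, 519 and 635 under irrigation. In the susceptible bulk it had 227, 363 and 226 under drought, against 83, 87 and 126 under irrigation. The difference of its responses was -2.68 ± 0.55 in the bulks (limma, adjusted p = 0.00689) and -2.19 ± 0.55 in the parents (adjusted p = 0.0137), where 4.74% of all tested probe sets were called lower. For the dimmer of them, which reached 218 at most, it was -3.71 ± 0.94 in the bulks (adjusted p = 0.0314) and -0.51 ± 0.94 in the parents (adjusted p = 0.822). The number called in the bulks was 1 without tolerant bulk drought array 3, and 1 with arrays centred on the brightest probe sets.

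The brightest rbcl probe set, with a mean signal of 79100, did not share the opposition between C306 and WL711. It was the brightest of all probe sets on 9 of the 24 arrays. In C306 it had signals of 163833, 80282 and 143037 under drought, against 58979, 70369 and 66291 under irrigation, the reverse order of the 2 probe sets described above. The difference was 0.91 ± 0.33 and did not pass (limma, adjusted p = 0.0509), and it was 0.38 without drought arrays 1 and 3, the 2 with the high spike-in signal. In WL711 it had 55706, 65015 and 85326 under drought, against 56209, 61505 and 42235 under irrigation, a difference of 0.42 ± 0.33 (adjusted p = 0.404). In the bulks under irrigation it had 145929, 117399 and 117596 in the tolerant bulk, against 48751, 63897 and 43932 in the susceptible bulk, a difference of 1.39 ± 0.33 (adjusted p = 0.00585). Under quantile normalization that difference was 0.04. That setting gives probe sets of the same rank the same value on every array. The highest signals on these arrays were 145929, 120140 and 122228, against 48751, 65379 and 45896. This probe set was at or near them, so a value near 0 was fixed beforehand and says nothing about the difference. Its drought difference was -0.68 ± 0.33 in the tolerant bulk (limma, adjusted p = 0.16) and 0.09 ± 0.33 in the susceptible bulk (adjusted p = 0.889). The difference of these responses, -0.76 ± 0.47, had the sign of A and B and did not pass (adjusted p = 0.458). Tolerant bulk drought array 3 had 41087, against 110365 and 107679 on the other drought arrays. The ID of this probe set ends in _x_at, so its signal may also mix transcripts.

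**Figure D3:**
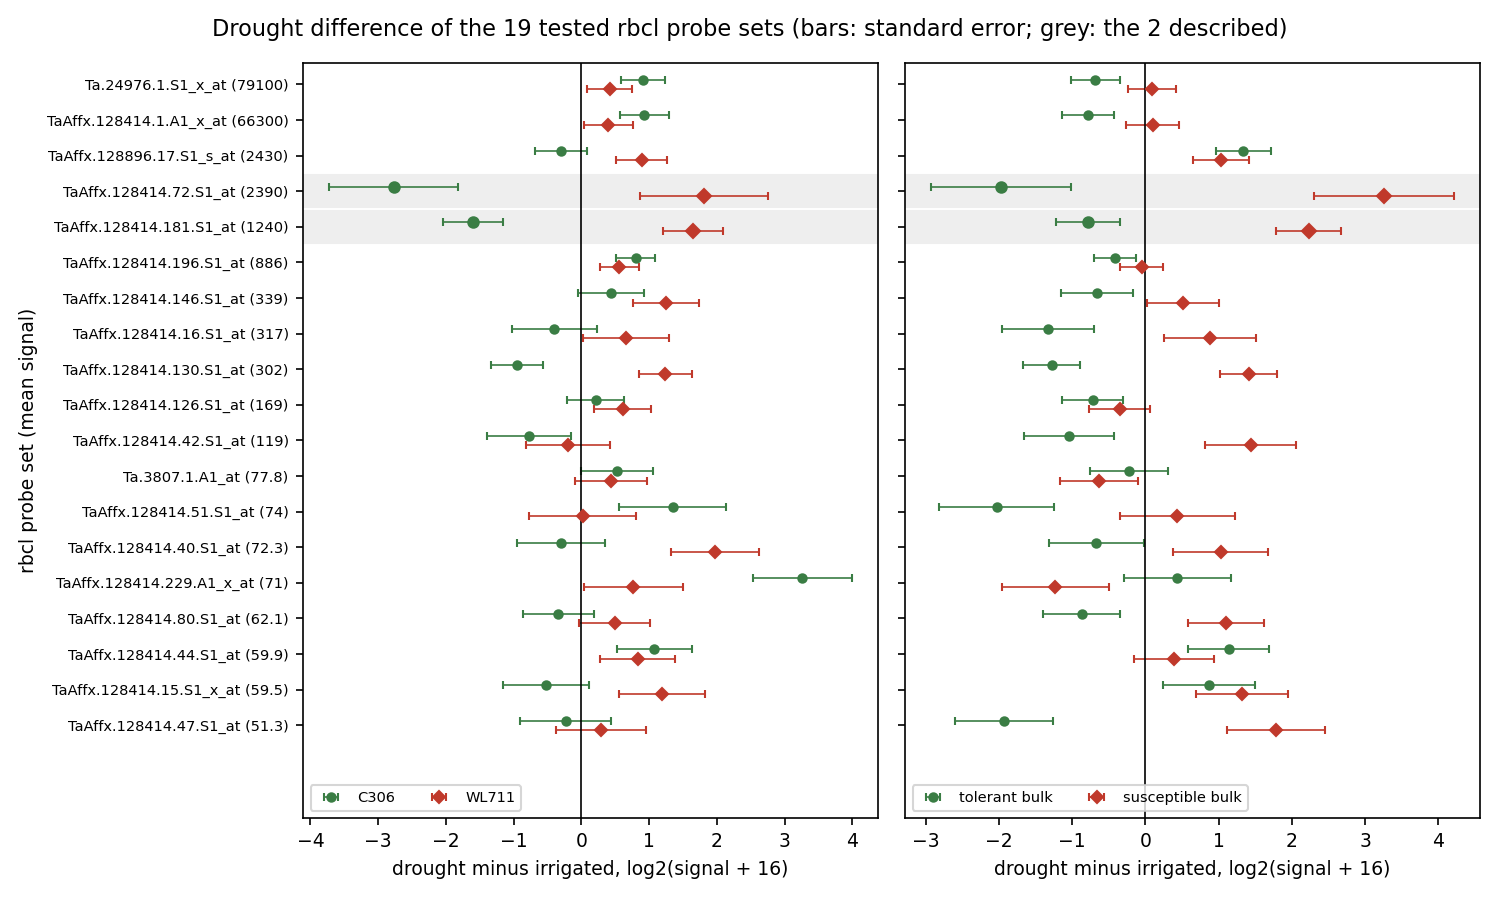
Drought minus irrigated difference on log2(signal + 16) for the 19 tested rbcl probe sets, brightest to dimmest with their mean signal, in C306 and WL711 (left) and in the tolerant and susceptible bulks (right); bars are standard errors and grey bands mark A (upper band) and B (lower band). The tolerant material lies left of the susceptible one on both grey bands in both panels, and the brightest probe set, in the top row, lies to the right of 0 in C306.

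A further 39 tested probe sets share the cluster number in their ID with A and B, some of them among the 17 above. Their median centred log2 level was 7.10 to 7.16 on the tolerant bulk drought arrays, against 7.22 to 7.79 on the irrigated ones. In the susceptible bulk it was 7.01 to 7.03 under drought, against 6.43 to 6.58 under irrigation. In the parents it overlapped between the regimes, at 7.33 to 7.46 under drought, against 7.13 to 7.48 under irrigation in C306, and at 6.86 to 7.56 under drought, against 6.69 to 6.97 under irrigation in WL711.

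PRK was one of the brightest transcripts on every array, ranking between 13 and 159 of all probe sets, and the annotation gave it this 1 probe set. In C306 it had signals of 42691, 42510 and 39598 under drought, against 37015, 40677 and 41899 under irrigation. In WL711 it had 44469, 32916 and 37383 under drought, against 38527, 42788 and 43426 under irrigation. The ranges overlapped in both parents, with drought differences of 0.05 ± 0.22 in C306 and -0.07 ± 0.22 in WL711. In WL711, drought arrays 2 and 3 lay below every irrigated array, and the difference was -0.23 without array 1.

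In both bulks PRK was lower under drought, with separate ranges. Ranges were separate for 32.1% of all tested probe sets in the tolerant bulk and for 49.4% in the susceptible bulk. The tolerant bulk had signals of 50014, 49379 and 30476 under drought, against 74522, 63099 and 68110 under irrigation, a difference of -0.69 ± 0.22, and -0.35 without drought array 3. The susceptible bulk had 28878, 25696 and 28669 under drought, against 40065, 52032 and 40821 under irrigation, a difference of -0.57 ± 0.22. Averaged over the 4 materials the drought difference was -0.32 ± 0.11. The difference between drought responses, tolerant minus susceptible, was 0.12 ± 0.31 in the parents and -0.12 ± 0.31 in the bulks.

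PRK and PsbP were tested between tolerant and susceptible material at one water regime, comparisons that use the same arrays as the drought differences. Which values the 2 genes were chosen on is not recorded and may include these, so the p-values are not independent evidence. In the irrigated bulks the ranges of PRK were separate, as they were for 39.5% of all tested probe sets. PRK was higher in tolerant leaves there, by 0.74 ± 0.22 or a fold of 1.67 (limma, adjusted p = 0.0272). Of all tested probe sets, 6.49% were called higher in that comparison. This call ended when any of 5 single irrigated bulk arrays was left out, all but susceptible bulk array 2 (adjusted p from 0.0535 to 0.111). Under drought the tolerant bulk was 0.61 ± 0.22 higher and did not pass (adjusted p = 0.106, with 6.18% of all tested probe sets called); without tolerant bulk drought array 3 the value was 0.95 (adjusted p = 0.000867). Between C306 and WL711 the difference was -0.05 ± 0.22 under irrigation (adjusted p = 0.913) and 0.07 ± 0.22 under drought (adjusted p = 0.875, with 14.2% of all tested probe sets called). In the order of levels, the tolerant bulk under irrigation (16.05 ± 0.08, centred log2, SD, n = 3) was above all other groups and the susceptible bulk under drought (14.74 ± 0.19) had the lowest mean, below all arrays of the next group, droughted WL711. The 6 groups between, from 15.37 to 15.29, overlapped pair by pair.

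The PRK difference between the bulks moved with the level of bright probe sets as a whole. The median of the 183 brightest other probe sets, on the same centred log2 scale, was 15.65 ± 0.03 (SD, n = 3) in the tolerant bulk under irrigation, against 14.87 ± 0.21 in the susceptible bulk under irrigation. It was 15.13 ± 0.54 in the tolerant bulk and 14.79 ± 0.16 in the susceptible bulk under drought. With arrays centred on these brightest probe sets, a setting added after seeing the data, PRK differed by -0.04 between the irrigated bulks (adjusted p = 0.837), and under quantile normalization by -0.23 (adjusted p = 0.245). The drought difference on that centring was -0.17 in the tolerant bulk and -0.49 in the susceptible bulk, against -0.17 in C306 and -0.38 in WL711. Relative to these bright probe sets, PRK stood at -0.08 to -0.03 on the susceptible bulk drought arrays, against 0.43 to 0.45 on the irrigated ones. In the tolerant bulk it stood at 0.17 to 0.27 under drought, against 0.29 to 0.50 under irrigation. The ranges overlapped in the parents. WL711 had 0.39, -0.16 and -0.22 under drought, against 0.28 to 0.52 under irrigation, and C306 had -0.17 to 0.08, against 0.06 to 0.15.

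**Figure D4:**
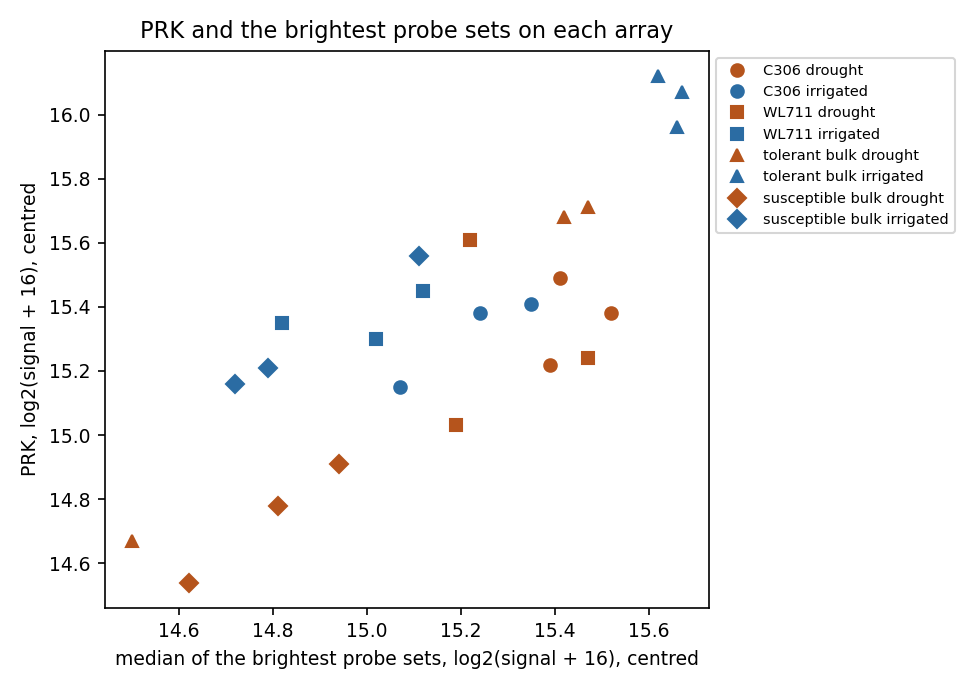
Centred log2(signal + 16) of PRK (vertical) against the median of the 183 brightest other probe sets (horizontal) on each of the 24 arrays; colours mark the water regime and shapes the material. The 3 irrigated tolerant bulk arrays are highest on both axes, and PRK is lower under drought at a similar level of the bright probe sets in the susceptible bulk.

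PsbP was lower under drought in all 4 materials, least so in C306. The tolerant bulk had signals of 5417, 8366 and 4137 under drought, against 32584, 35237 and 34162 under irrigation, a difference of -2.56 ± 0.41 or a fold of 5.91. The susceptible bulk had 2591, 2343 and 2454 under drought, against 12972, 12987 and 12406 under irrigation, a difference of -2.27 ± 0.41. The ranges were separate by a wide margin in both bulks. Of all tested probe sets, 32.1% had separate ranges in the tolerant bulk and 49.4% in the susceptible bulk, by any margin.

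In WL711 PsbP had signals of 7621, 1865 and 1306 under drought, against 9306, 11947 and 9917 under irrigation. The array labelled drought replicate 1 was again the closest to the irrigated arrays, and the difference of -1.90 ± 0.41 became -2.70 without it. In C306 the signals were 2377, 3814 and 2697 under drought, against 3656, 4899 and 4204 under irrigation, and drought array 2 lay within the irrigated range. The difference there was -0.56 ± 0.41, and -0.07 without drought arrays 1 and 3. Averaged over the 4 materials it was -1.82 ± 0.20.

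The difference between drought responses of PsbP, tolerant minus susceptible, was 1.34 ± 0.58 in the parents and -0.29 ± 0.58 in the bulks, neither of them tested. The value in the parents was 2.63 with the 3 doubted parent arrays, WL711 drought 1 and C306 drought 1 and 3, left out. That leaves 1 drought array for C306.

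Between materials, PsbP was lower in C306 than in WL711 under irrigation, with signals of 3656 to 4899 in C306, against 9306 to 11947 in WL711. The difference was -1.27 ± 0.41 (limma, adjusted p = 0.033), in a comparison with 7.87% of all tested probe sets called lower. This call ended without any 1 of 5 irrigated parent arrays, all but C306 array 2 (adjusted p from 0.0627 to 0.121), and the value stayed between -1.41 and -1.14 when single arrays were left out. In the bulks the order was the other way: the irrigated tolerant bulk was higher than the irrigated susceptible bulk by 1.51 ± 0.41 (adjusted p = 0.0141), and no single array left out ended the call. That value was 0.96 under quantile normalization (adjusted p = 0.0682) and 0.73 with arrays centred on the brightest probe sets (adjusted p = 0.146).

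Under drought PsbP did not pass between materials. The tolerant bulk had 4137 to 8366, against 2343 to 2591 in the susceptible bulk. These ranges were separate, as they were for 25.4% of all tested probe sets. The difference was 1.22 ± 0.41 (limma, adjusted p = 0.077). It passed without tolerant bulk drought array 3 (1.56, adjusted p = 0.0198). Between C306 and WL711 the difference was 0.07 ± 0.41 (adjusted p = 0.937); without WL711 drought array 1 it was 0.87 (adjusted p = 0.0323), and without WL711 drought array 3 it was -0.45 (adjusted p = 0.489).

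In the order of levels, PsbP was highest in the irrigated tolerant bulk (15.04 ± 0.10, centred log2, SD, n = 3), above the irrigated susceptible bulk (13.53 ± 0.03) and irrigated WL711 (13.36 ± 0.22), which overlapped each other. The tolerant bulk under drought (12.48 ± 0.66) came next, below them and overlapping irrigated C306 (12.09 ± 0.27). From there down to the susceptible bulk under drought (11.26 ± 0.17) the neighbours overlapped.

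The annotation gave PsbP a second probe set, with a mean signal of 39300, which showed a smaller drought difference on average. Since PsbP was picked with drought responses of these data known, the p-values of this probe set are not independent evidence. Averaged over the 4 materials it fell by 0.68 on the log2 scale (-0.68 ± 0.15, limma, adjusted p = 0.000824), in a comparison where 22% of all tested probe sets were called lower. In C306 it had signals of 17931, 30277 and 19111 under drought, against 35687, 43719 and 43049 under irrigation, and was called at -0.91 ± 0.30 (adjusted p = 0.0338, with 12% of all tested probe sets called lower), a call that ended without drought arrays 1 and 3 (-0.34, adjusted p = 0.76). In the other materials it stood at -0.84 ± 0.30 in the tolerant bulk, -0.66 ± 0.30 in the susceptible bulk and -0.29 ± 0.30 in WL711 and did not pass. In WL711, drought array 1 had 43125, against 27943 and 28178 on the other drought arrays and 37326 to 45188 under irrigation. In the tolerant bulk, drought array 3 had 22961, against 50615 and 50503 on the other drought arrays and 67316 to 72756 under irrigation. Between C306 and WL711 under irrigation the second probe set differed by -0.01 ± 0.30 (adjusted p = 0.994), whereas the first PsbP probe set was called lower there. The 2 probe sets named for PsbP thus gave unlike values, and the reason was not tested.

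A list of photosynthesis genes, matched on gene symbols and synonyms, gave 4 others that were tested, each by its brightest probe set. It may not hold every such gene that the annotation names. The 4 included PsbO, which stabilises the water-splitting manganese cluster, and petC, the Rieske iron-sulphur protein of the cytochrome b6f complex. The others were FBP, a fructose bisphosphatase, and Trx-M, a chloroplast thioredoxin that relays redox state to enzymes. The list was drawn up with earlier results of these data known, so its calls are not independent evidence of a direction. Averaged over the materials, 3 of the 4 fell under drought and 0 rose: PsbO at -0.78 ± 0.15, FBP at -0.91 ± 0.12 and Trx-M at -0.59 ± 0.14 (limma, adjusted p = 0.000137, 1.92e-06 and 0.0016). The difference of petC was 0.09 ± 0.14 (adjusted p = 0.641). Of all tested probe sets, 22% were called lower in that comparison. The median of the 4 was -0.69, against 0.03 over all tested probe sets.

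By material, and under the same limit, PsbO was called lower under drought in C306 (-1.27 ± 0.30, limma, adjusted p = 0.00345) and in the tolerant bulk (-1.19 ± 0.30, adjusted p = 0.00635), and the call in C306 ended without drought arrays 1 and 3 (-0.62, adjusted p = 0.473). FBP was called lower in WL711 (-0.88 ± 0.25), the susceptible bulk (-1.07 ± 0.25) and the tolerant bulk (-1.06 ± 0.25), and 9.02% of all tested probe sets were called lower in WL711 and 11.4% in the susceptible bulk. Between the irrigated bulks PsbO and petC were higher in the tolerant bulk, by 1.40 ± 0.30 and 1.24 ± 0.29 (adjusted p = 0.00251 and 0.0051), which is the direction that PRK and PsbP had there. Of all tested probe sets, 6.49% were called higher between these bulks. Under quantile normalization the PsbO and petC differences were 0.36 and 0.31 and did not pass (adjusted p = 0.263 and 0.0924). FBP was lower in C306 than in WL711 under irrigation, at -0.75 ± 0.25 (adjusted p = 0.0375), the direction of PsbP in the same comparison. There 7.87% of all tested probe sets were called lower.

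The probe sets whose 8 group means were most like those of each member were found by the root mean square difference of log2 levels, each centred on its own mean. For PRK the nearest named ones were TCTP at 0.12, SAHH at 0.20 and PRO1 at 0.22, and the nearest of all tested probe sets, unnamed here, was at 0.08. The group means of PRK itself had an SD of 0.33. For PsbP they were Pgk-1 at 0.55 and LTP3 and PRO1 at 0.70, with the nearest of all, unnamed here, at 0.20 and an SD of 1.22 for PsbP. For rbcl probe set B they were SER1 at 0.71, ATI at 0.72 and H2A-9 at 0.74, with the nearest of all, unnamed here, at 0.34 and its own SD at 0.90. For rbcl probe set A they were TUB at 1.16, H2A-9 at 1.18 and Hmgb3 at 1.24, not far under the SD of 1.45 of the probe set itself, with the nearest of all, unnamed here, at 0.83.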

How the data were processed

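RNA from 24 flag leaf samples was measured on Affymetrix wheat arrays; per the labels' protocols, 8 ug of total RNA was turned into biotin-labelled cRNA. The authors deposited a linear intensity for each probe set; the submitters' processing notes name GCOS 1.2. Each array's deposited intensity had a mean, trimmed by 2% at each end, of 500.091 to 500.113, so the authors had scaled all arrays to a common trimmed mean. Detection calls were not used here, and precision is limited by how many arrays there are.

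Intensities were turned into log2(signal + 16). The 111 controls were left out, as were probe sets whose mean intensity lay in the lowest 40% (under 48.6), which left 36707 to test. Array medians differed by 0.387, above the limit of 0.3, so arrays were centred on their median. Groups were compared with limma (version 3.58.1, in R 4.3.3), fitting 8 group means with a prior variance that follows intensity (16 residual degrees of freedom, 8.32 prior), and with two-sided Benjamini-Hochberg adjustment at 0.05 over all tested probe sets within each of 11 comparisons.

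The members and gene lists were chosen with earlier results of these data known. The values that chose them are not recorded. The PRK and PsbP members were tested only between materials, where their p-values may rest on values used in the choice and are not independent evidence. The rbcl probe sets A and B were tested in no comparison. Tests of A and B, and of the members' differences between drought responses, had been planned. Other probe sets annotated to rbcl and PsbP were tested, also under drought, and their p-values are not independent evidence either. Genes were named from the platform annotation, which names 1273 probe sets of 771 genes, each with 1 gene; 770 of these genes were found in a RefSeq gene table, from which names and no positions were taken. Named outside the members were the brightest other probe set of each gene, the listed pathway genes, and the 3 named and 1 other probe set nearest to each member. Replicate numbers do not pair the samples: deviations from the group means of arrays with the same number had a median correlation of 0, between -0.14 and 0.19 over 84 pairs. The alternatives tried are given in the closing section.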

Additional observations from a re-analysis of the deposited data

Results flagged for a closer look

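Both results below concern rbcl drought responses that ran in opposite directions on every array of 2 materials, and the difference between the materials was not tested in either, because the probe sets were chosen with drought responses of these data known.

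For rbcl probe set A in the bulks, every tolerant bulk drought array was below every irrigated one. Every susceptible bulk drought array was above every irrigated one, and the difference between the responses was -5.23 on the log2 scale. Separate ranges in either direction held for 32.1% of all tested probe sets in the tolerant bulk and for 49.4% in the susceptible bulk. The pattern was not complete for rbcl probe set B in the bulks, as its ranges overlapped in the tolerant bulk. For rbcl probe set B in the parents, every C306 drought array was below the irrigated arrays of its material. Every WL711 drought array was above those of its own, and the difference was -3.26. The lowest WL711 drought array stood at 9.3 (centred log2), against 9.13 on the highest irrigated one, and its drought score was near that of irrigated leaves. Separate ranges held for 37.8% of all tested probe sets in C306 and for 32.8% in WL711. The ranges of rbcl probe set A overlapped in both parents. How many of all tested probe sets had separate ranges in opposite directions within a pair of materials was not counted.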

How the results depend on the processing

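Under the other settings the rbcl values kept their direction in the bulks. In the irrigated bulks, centring on the brightest probe sets gave 1.32 for rbcl probe set B. PRK there was 0.39 with no filter on dim probe sets and 0.39 with centring over all probe sets, which ended the call, -0.23 under quantile normalization and -0.04 on the brightest probe sets, which turned it. PsbP there was 1.16, 1.16, 0.96 and 0.73 in the same 4 settings and did not pass. In the droughted bulks PRK passed at 0.61 without centring, and PsbP passed at 1.21 without centring, 1.29 under quantile normalization, 1.22 with only the groups compared, and 1.22 with WL711 drought array 1 and C306 drought arrays 1 and 3 left out. The difference of responses in the bulks was 0.53 (quantile) and 0.31 (brightest) for PRK and 0.33 (quantile) for PsbP. Between the droughted parents, PRK was -0.15 with no filter, with centring over all probe sets and under quantile normalization, and -0.07 on the brightest; PsbP was -0.15, -0.15 and -0.08 with no filter, centring over all and the brightest, and 1.36 with the 3 arrays out. Without C306 drought arrays 1 and 3, rbcl between the droughted parents was 0.60 and -0.04, and the difference of responses -2.05 and -2.41. With the 3 arrays out that difference was 0.40 for PRK and 2.63 for PsbP. The cause of these shifts was not tested.

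With single arrays left out, PRK ranged from 0.66 to 0.86 in the irrigated bulks and from 0.44 to 0.95 in the droughted bulks, and between the parents from -0.10 to 0.03 under irrigation and from -0.06 to 0.23 under drought. PsbP ranged from -1.41 to -1.14 between the irrigated parents, from -0.45 to 0.87 between the droughted parents and from 0.89 to 1.56 between the droughted bulks. rbcl probe set A ranged from -3.47 to -0.97 between the droughted parents. The difference of responses ranged from -6.12 to -3.62 for it and from 0.82 to 2.15 for PsbP in the parents, and from -0.30 to 0.22 for PRK in the bulks. Adjusted p over all settings lay between 0.00186 and 0.837 for PRK and between 3.44e-06 and 0.146 for PsbP in the irrigated bulks, and between 9.64e-05 and 0.121 for PsbP in the irrigated parents.

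The labels number the replicates alike in all groups, but the numbers did not pair the samples; with the replicate number as a block PRK in the irrigated bulks was 0.74 (adjusted p = 0.0289), and no call of PRK or PsbP changed.

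The number of probe sets called depended on the arrays and groups fitted. With only the groups compared it was 712 in WL711 drought against 7140 as reported, 14157 against 8907 in susceptible bulk drought, 10743 against 5941 in the irrigated and 866 against 5222 in the droughted parents, and 8521 against 5204 in the irrigated bulks, and for the difference of responses 1696 against 2883 in the parents and 1655 against 1044 in the bulks. With the 3 arrays out it was 12419 in WL711 drought, 3034 against 7804 in C306 drought, 8014 in the irrigated bulks, 2488 in the droughted parents, 4714 against 2270 in the droughted bulks and 2519 for the difference in the bulks. Without the 2 C306 arrays it was 1667 in C306 drought, 1161 in the droughted parents and 1325 for the difference in the parents, which was 1893 with no filter and 1806 on the brightest probe sets. Centring on these also gave 10468 against 6893 in tolerant bulk drought and 14312 in the irrigated bulks.

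Scaling moved the median of all tested probe sets: between the irrigated bulks it was 0.05 as reported, -0.30 with centring over all probe sets and -0.73 on the brightest, where 2.46% of the calls were higher, against 45.8% as reported. The low number of arrays, and no measure of signal over background, limit the dim rbcl probe sets most.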
